A study of Bos taurus with 9 samples.

Results

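Solute carriers are membrane proteins that move amino acids, sugars, metals, nucleosides, nucleotide sugars and other small molecules across the plasma membrane and the membranes of mitochondria, lysosomes, the endoplasmic reticulum and the Golgi apparatus. In the uterus they carry nutrients and ions between the maternal blood, the endometrium and the lumen in which the early embryo develops. Family numbers in their symbols mark related sequences rather than a shared substrate. The genes described here were selected on their mean level: they are the 104 genes whose symbol starts with SLC and a number and whose mean log2 level over all 9 arrays was at least 4. That is 104 of 179 such genes on the array, and 104 of 6444 named genes that reached the same level. Each gene is represented by the probe set with the highest mean, and 32 of the 104 genes had several probe sets. The rule itself used no group difference, but the members were chosen with earlier results of these data known. Of the 104, 2 carry the symbol without being transporters: SLC4A1AP encodes an adaptor protein of the anion exchanger SLC4A1, and SLC7A6OS is named for its place opposite SLC7A6.

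The cells were primary stromal and epithelial cells of the endometrium of Holstein/Polish Black and White cows, mixed at 3 to 1 and cultured together. The control group received phosphate-buffered saline (PBS). The LPA group received lysophosphatidic acid (1-oleoyl-sn-glycerol 3-phosphate, 1e-06 M), a signalling lipid with G protein-coupled receptors, and the LPA+IFNt group received LPA with interferon tau (1000 antiviral units), the pregnancy recognition signal of the ruminant embryo. Exposure lasted 6 h, and cows were at days 2 to 5 of the oestrous cycle. Each group had 3 samples made by pooling RNA of 3 cows, and 9 cows gave all 9 pools, so pools share cows and p-values measure the spread between these pools only. Interferon tau without LPA was not analysed here.

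All values are log2 levels of a probe set as deposited, where 1 unit is a doubling. Levels of different genes come from different probes and were not set against each other. Epithelial markers (11 of 12 measured) and stromal markers (12 of 12) all lay above 2.80 in control, the top reading of the bacterial trp control probes, whose transcript should be absent. The same was true of 4 of 12 leukocyte and 0 of 7 endothelial markers. On each of the 9 arrays all 104 solute carrier genes lay above that value. The genes just inside the level of 4 were SLC43A1 (4.01), SLC46A3 (4.37) and SLC26A11 (4.47), and those just outside were SLC7A7 (3.89), SLC4A4 (3.87) and SLC4A11 (3.86). SLC43A1 passed through its control and LPA arrays (means 4.25 and 4.07), since its LPA+IFNt mean was 3.70. Among the 75 genes under the level, limma called 0 in the 3 comparisons without the replicate number as a block and 1 with it: SLC4A4, a sodium bicarbonate cotransporter gene, differed by -1.09, -0.63 and -1.30 within replicate numbers 1, 2 and 3 in LPA+IFNt against control (adjusted p = 0.339, or 0.0431 with the block).

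Calls were made with limma at an adjusted p under 0.05 over all probe sets of the array. SLC25A28, the gene of the mitochondrial iron importer mitoferrin-2, rose 3.10-fold over control, and SLC38A5, the gene of a sodium-coupled transporter of glutamine and other small neutral amino acids, rose 2.79-fold. SLC39A9 and SLC11A2, genes of a zinc and of an iron transporter, and SLC25A4, which encodes the ADP/ATP exchanger ANT1 of mitochondria, fell by 0.33 to 0.49 log2 units. SLC39A9 lost its call with its probe sets averaged, and SLC11A2 lost its call without any 1 of 7 arrays. LPA without interferon tau gave no call among the probe sets standing for the 104 genes. In all, without the block 11 genes were called in at least 1 comparison and 93 in none. That is 10.6% called, against 13.1% of the 6444 named genes at the same level. With the replicate number as a block 22 of the 104 were called in at least 1 comparison. Shares with the block are given by comparison further on.

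**Figure D1:**
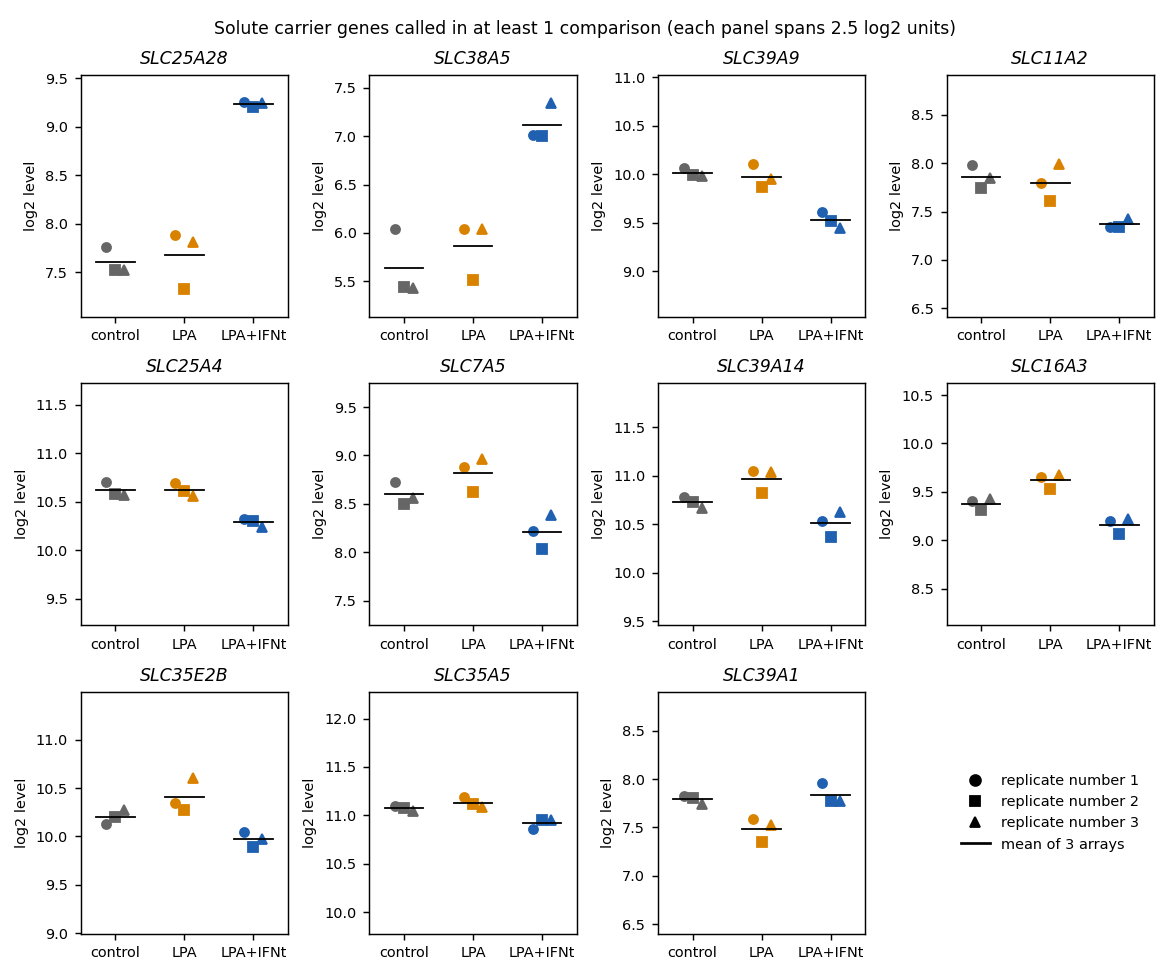
Log2 levels (y axis) of the 11 solute carrier genes called in at least 1 comparison, by group (x axis), with 1 point per array, symbols for the replicate number and a bar for the mean of 3 arrays; each panel spans 2.5 log2 units. The LPA+IFNt arrays of SLC25A28 lie between 9.20 and 9.25, above the other 6 arrays, and those of SLC39A9 lie between 9.45 and 9.61, below the other 6.

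The comparison of LPA+IFNt with control asked what both agents together did to these transcripts. SLC25A28 stood at 7.76, 7.52 and 7.52 in control, at 7.88, 7.33 and 7.81 with LPA, and at 9.25, 9.20 and 9.25 with LPA+IFNt. The LPA+IFNt arrays lay far above the other 6 and within 0.05 of each other. The rise over control was 1.63 on the log2 scale (SE 0.14, 3.10-fold, adjusted p = 0.000481). Its closest relative SLC25A37, the gene of mitoferrin-1, stood at 9.25 ± 0.08 in control and 9.36 ± 0.08 with LPA+IFNt (SD, n = 3, difference 0.11, 95% interval -0.17 to 0.40). SLC25A37, and SLC30A1 and SLC25A40 further on, fall outside the rule for named genes and were chosen after their values were seen. Also outside it, and named for calls with the block, are SLC39A2, SLC39A7, SLC30A5, SLC25A1, SLC25A38, SLC25A51, SLC25A29 and SLC25A6.

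SLC38A5 was at 6.04, 5.44 and 5.43 in control, 6.04, 5.51 and 6.04 with LPA, and 7.01, 7.01 and 7.34 with LPA+IFNt. The groups with and without interferon tau did not overlap, and the rise over control was 1.48 (SE 0.21, adjusted p = 0.00652). Within the replicate numbers of the labels it was 0.97, 1.57 and 1.91. Without the replicate number as a block the other amino acid transporter genes stayed without a call, and with it SLC7A5 was called lower. SLC38A2, a relative with a similar substrate range, was at 13.87 ± 0.06 in control and 13.82 ± 0.035 with LPA+IFNt (SD, n = 3, 95% interval of the difference -0.14 to 0.03). SLC1A5, the gene of the glutamine exchanger ASCT2, differed by 0.12 (95% interval -0.03 to 0.28), and SLC7A1, the gene of an arginine and lysine transporter, by -0.20 (95% interval -0.59 to 0.18).

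Markers of blood cells were compared beside these rises. The summed linear level of the 12 leukocyte markers was 272 to 321 in control, 309 to 397 with LPA and 253 to 291 with LPA+IFNt. Their mean log2 level, in which each marker weighs the same, was 3.24 to 3.34 in control, 3.33 to 3.56 with LPA and 3.36 to 3.49 with LPA+IFNt. With LPA both measures ranged higher than in control and overlapped it. With LPA+IFNt the mean log2 level lay above control on every array, while the summed level ranged lower and overlapped control. The largest rise among the 12 was 1.26, in CD53, and the median difference from control was 0.04. The 4 markers above the trp value in control differed from it with LPA+IFNt by -0.74 (CD14), 0.29 (LCP1), 0.15 (LAPTM5) and 0.03 (PTPRC), and from LPA by -0.80, -0.30, 0.14 and -0.72. CD53 was the only leukocyte marker called without the block (1.26 against control), and its control level of 2.75 lay under the trp value. With the block CD14 was called too, with an adjusted p of 0.0364 against control and 0.0271 against LPA. The part of leukocyte RNA in the 2 rises was not tested.

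The 3 falls against control were smaller than the rises. SLC39A9, which encodes the zinc transporter ZIP9, was at 10.07, 9.99 and 9.98 in control, 10.11, 9.87 and 9.95 with LPA, and 9.61, 9.51 and 9.45 with LPA+IFNt. It fell by 0.49 against control (SE 0.068, adjusted p = 0.00566), and the LPA+IFNt arrays lay below all others. SLC25A4 was at 10.71, 10.58 and 10.56 in control, 10.69, 10.61 and 10.56 with LPA, and 10.33, 10.30 and 10.24 with LPA+IFNt. It fell by 0.33 (SE 0.052, adjusted p = 0.0112), again with no overlap. SLC11A2, which encodes the iron importer DMT1, was at 7.98, 7.74 and 7.84 in control, 7.79, 7.61 and 7.99 with LPA, and 7.34, 7.34 and 7.43 with LPA+IFNt. Its fall of 0.48 (SE 0.098, adjusted p = 0.0317) was lost without any of 7 arrays, the exceptions being LPA replicates 2 and 3, with adjusted p of up to 0.109. The other 4 calls held without each array in turn.

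Of the 104 genes, 1.92% were called higher and 2.88% lower in LPA+IFNt against control. Among the 6444 named genes at the same level the shares were 4.66% and 4.35%. The median difference was -0.07 over the 104 genes and -0.06 over the 6444. With arrays centred on bacterial and phage spike-in controls, the median of all probe sets moved from 0.02 to 0.12. There 5 solute carrier genes were called higher and 0 lower, and SLC39A9 (-0.39), SLC25A4 (-0.23) and SLC11A2 (-0.38) kept their direction and lost their calls. The higher calls gained were SLC39A2, SLC5A1 and SLC6A14. That fit gave all 104 genes the same standard error (0.18), where the deposited scale gave up to 0.87. The share called among the 6444 was not computed under this centring, so these counts have no background.

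Some stromal markers were lower as well. Of 12 stromal markers 3 were called lower in LPA+IFNt against control (COL3A1, COL1A1 and FBN1) and 5 against LPA. Among the 6444 named genes 4.35% and 5.82% were lower. The other 9 markers had no call against control: PDGFRA (0.06), PDGFRB (0.05) and POSTN (0.04) lay above it and the rest below. The mean log2 level of the 12 was 11.32 to 11.43 in control, 11.42 to 11.62 with LPA and 11.19 to 11.22 with LPA+IFNt. Of 11 epithelial markers 1 was called higher against control (CDH1) and 1 lower against LPA (SPINT2), with mean log2 levels between 10.86 and 11.03 on the 9 arrays and overlapping groups. With the block MUC1 was also called higher against control (0.40) and against LPA (0.48), KRT18 was called higher against LPA (0.20), and the stromal marker COL1A2 lost its call against LPA (adjusted p = 0.0609). The part of stromal and epithelial RNA in the lower transporter levels was not tested, and in these mixed cultures fewer cells of a type and less RNA per cell cannot be told apart.

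Replicate numbers in the labels pair the pools, as described under the processing, and with the number as a block the falls became more numerous. In LPA+IFNt against control 3 genes were then called higher and 10 lower (2.88% and 9.62% of the 104, against 6.01% and 9.95% of the 6444). The 5 calls above were kept and 8 were added. The zinc transporter gene SLC39A2 (1.39) was higher. Lower were SLC39A7 (-0.29) and SLC30A5 (-0.19), whose proteins move zinc out of the endoplasmic reticulum and into secretory compartments, and SLC16A3 (-0.22), the gene of the lactate exporter MCT4. The others were SLC4A7 (-0.22), a sodium bicarbonate cotransporter gene, SLC7A5 (-0.39), which encodes the large neutral amino acid transporter LAT1, SLC25A1 (-0.43), the gene of the mitochondrial citrate carrier, and SLC6A8 (-0.53), the creatine transporter gene. Adjusted p of the 8 lay between 0.00552 and 0.0425 with the block and between 0.0952 and 0.213 without it.

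**Figure D2:**
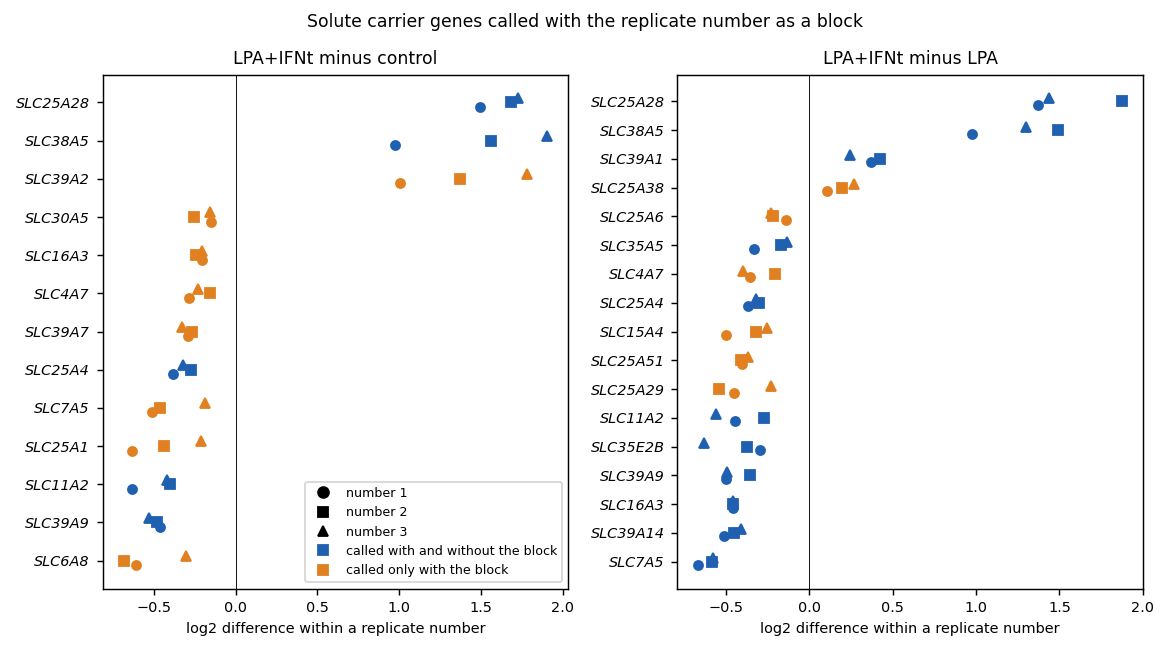
Log2 differences (x axis) within replicate numbers 1, 2 and 3 (symbols) of solute carrier genes called with the number as a block, for LPA+IFNt minus control (13 genes) and LPA+IFNt minus LPA (17 genes); blue genes were also called without the block. Every point of a gene lies on the same side of 0, and the points of SLC16A3 in LPA+IFNt minus LPA nearly coincide at -0.46.

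The comparison of LPA+IFNt with LPA shows what interferon tau added on top of LPA. It shares the LPA+IFNt arrays with the comparison above. Without the block 3 genes were called higher and 8 lower, or 2.88% and 7.69% of the 104, against 5.07% and 5.82% of the 6444. With the block 4 were higher and 13 lower (3.85% and 12.5%, against 6.73% and 10.7%). All 5 genes called against control were also called here: SLC25A28 (1.56, SE 0.14, adjusted p = 0.000641), SLC38A5 (1.26), SLC39A9 (-0.45), SLC11A2 (-0.43) and SLC25A4 (-0.33).

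Outside those 5, the smallest adjusted p belonged to SLC16A3, which stood at 9.41, 9.31 and 9.42 in control, 9.66, 9.53 and 9.68 with LPA, and 9.20, 9.07 and 9.22 with LPA+IFNt. All LPA arrays lay above all control arrays, and all LPA+IFNt arrays below both. The fall from LPA to LPA+IFNt was 0.46 (SE 0.059, adjusted p = 0.00394) and held without each array in turn. The difference between LPA and control was 0.24 (adjusted p = 0.255, or 0.0626 with the block). SLC16A1, the gene of the related lactate transporter MCT1, differed by 0.22 between LPA+IFNt and LPA (95% interval -0.25 to 0.68).

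SLC7A5 was at 8.73, 8.50 and 8.56 in control, 8.88, 8.62 and 8.96 with LPA, and 8.22, 8.04 and 8.38 with LPA+IFNt. The LPA+IFNt arrays lay below the other 6, and the fall against LPA was 0.61 (SE 0.12, adjusted p = 0.0231). LAT1 works as a pair with the heavy chain encoded by SLC3A2, which was at 7.91 ± 0.09 with LPA and 7.89 ± 0.07 with LPA+IFNt (SD, n = 3, difference -0.02, 95% interval -0.31 to 0.27).

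Of 15 metal transporter genes 1 was called higher and 3 lower in this comparison, where 5.07% of the 6444 named genes were higher and 5.82% lower. SLC39A14, which encodes ZIP14, an importer of zinc, iron and manganese, was at 10.78, 10.73 and 10.67 in control, 11.05, 10.82 and 11.04 with LPA, and 10.54, 10.36 and 10.63 with LPA+IFNt. It fell by 0.46 against LPA (SE 0.086, adjusted p = 0.0195). SLC39A1, the gene of the zinc importer ZIP1, went the other way: 7.82, 7.81 and 7.74 in control, 7.59, 7.35 and 7.53 with LPA, and 7.96, 7.77 and 7.77 with LPA+IFNt. Its LPA arrays were the low ones, and the level with LPA+IFNt was higher by 0.35 (SE 0.076, adjusted p = 0.0381) than with LPA and 0.04 above control. SLC39A9 and SLC11A2 were the other 2.

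In the nucleotide sugar family SLC35E2B, a member with no established substrate, was at 10.34, 10.27 and 10.60 with LPA and 10.05, 9.89 and 9.97 with LPA+IFNt. It fell by 0.43 (SE 0.088, adjusted p = 0.028), and its other probe set was called too (-0.31, adjusted p = 0.024, or 0.0503 with the block). SLC35A5, a Golgi member of the family, went from 11.19, 11.12 and 11.09 to 10.86, 10.95 and 10.95 (-0.21, SE 0.039, adjusted p = 0.0192).

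Several of these calls were lost with 1 array left out, in some genes also when that array was a control. SLC7A5 lost its call without LPA replicate 1 or 3 or LPA+IFNt replicate 1 or 2 (adjusted p of up to 0.0921), SLC39A14 without LPA replicate 1 or 3 or LPA+IFNt replicate 1 (0.0796), and SLC35A5 without LPA replicate 1 or LPA+IFNt replicate 1 (0.0602). SLC35E2B lost it without control replicate 2, LPA replicate 1 or any LPA+IFNt array (0.0939). SLC11A2 kept it only without LPA replicate 2 (0.136 at most) and SLC39A1 only without LPA replicate 1 (0.0964 at most). The count of lower genes was 3 without LPA replicate 1 or LPA+IFNt replicate 1, 5 without LPA replicate 3 or LPA+IFNt replicate 2, and 12 without LPA replicate 2. With spike-in centring, where 1 standard error was again shared, the median of all probe sets moved from 0.02 to 0.14. There 3 genes were called higher and 1 lower, again without a share for the named genes at the same level. SLC25A28 and SLC38A5 kept their calls and the other 9 lost theirs with unchanged direction.

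The block added 6 genes here. SLC25A38, the gene of a mitochondrial glycine carrier needed for haem synthesis, was higher (0.19). Lower were SLC15A4 (-0.36), which encodes a lysosomal transporter of histidine and peptides, SLC4A7 (-0.32) and 3 mitochondrial carrier genes. These were SLC25A51 (-0.40), the NAD carrier gene, SLC25A29 (-0.41), the gene of a carrier of basic amino acids, and SLC25A6 (-0.20), which encodes a second ADP/ATP carrier. Their adjusted p lay between 0.00923 and 0.0485 with the block and between 0.0591 and 0.356 without it.

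LPA against control gave 0 calls in either direction by limma among the probe sets standing for the genes, with and without the block. Another probe set of SLC25A5 was called lower without the block, as described below. Among the 6444 named genes 0.124% were called higher and 0.0466% lower, or 0.0621% and 0.031% with the block. At an unadjusted p under 0.05 there were 7 higher and 6 lower of 104, or 12.5% against 13.8% of the 6444. The smallest adjusted p belonged to SLC16A3 (0.24, 0.255), SLC39A1 (-0.31, 0.259) and SLC25A40 (0.46, 0.311), a mitochondrial carrier gene. SLC44A2, a choline transporter-like gene, stood at -0.46 (adjusted p = 0.427).

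A test for any difference among the 3 groups called 8 genes, or 7.69% of the 104 against 9.73% of the 6444. They were SLC25A28, SLC39A9, SLC16A3, SLC38A5, SLC25A4, SLC35A5, SLC39A14 and SLC11A2. With the block it called 16 genes, or 15.4% against 17.1%.

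**Figure D3:**
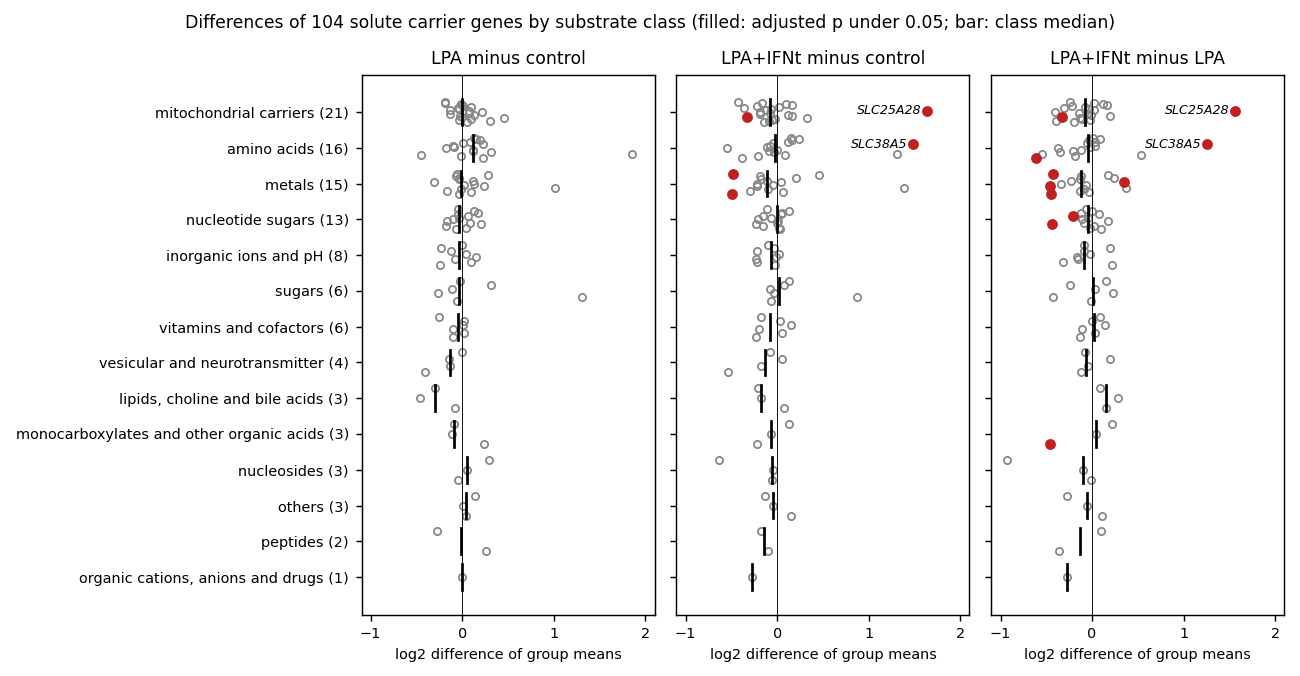
Log2 differences of group means (x axis) for the 104 genes, with 1 point per gene, grouped by substrate class with the number of genes in brackets (y axis); filled points passed an adjusted p of 0.05 and bars mark class medians. Class medians lie between -0.30 and 0.15, SLC25A28 and SLC38A5 are the filled points at 1.63 and 1.48 in LPA+IFNt minus control, and the open points nearest to them are SLC39A2 (1.39) and SLC6A14 (1.31).

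By substrate class, calls without the block were spread thinly. The classes follow family numbers. Of 15 metal transporter genes 0 were higher and 2 lower in LPA+IFNt against control (median -0.11), and 1 higher and 3 lower against LPA (median -0.12). The copper importer gene SLC31A1 stood at -0.17 against control (adjusted p = 0.125), and the zinc exporter gene SLC30A1 at 0.45 (adjusted p = 0.119). Of 21 mitochondrial carrier genes 1 was higher and 1 lower in both comparisons (medians -0.08 and -0.07). The phosphate carrier gene SLC25A3 stood at -0.15 against LPA (adjusted p = 0.168). Of 16 amino acid transporter genes 1 was higher against control (median -0.02), and 1 higher and 1 lower against LPA (median -0.05). Of 13 genes of the nucleotide sugar family 0 were called against control and 2 were lower against LPA (medians -0.003 and -0.04). The medians over the 6444 genes were -0.06 and -0.04. Of the 6444, 4.66% were called higher and 4.35% lower against control, and 5.07% and 5.82% against LPA.

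No gene was called without the block in LPA+IFNt against control in the remaining classes, given here with their smallest F-test p and highest level. With the block SLC16A3, SLC4A7 and SLC6A8 of these classes were called lower. Among 8 genes of inorganic ion transport, SLC20A1, a phosphate transporter gene, stood at -0.22 (95% interval -0.45 to 0.01). Among 6 sugar transporter genes, SLC2A1, the gene of the glucose transporter GLUT1, was at 11.64 ± 0.06 in control, 11.62 ± 0.11 with LPA and 11.77 ± 0.02 with LPA+IFNt (SD, n = 3). Its difference from control with LPA+IFNt was 0.13 (95% interval -0.01 to 0.27). SLC44A4 (0.08), a relative of choline transporters, the nucleoside transporter gene SLC29A1 (-0.05), the carnitine transporter gene SLC22A5 (-0.27), the sialic acid exporter gene SLC17A5 (-0.08), the acetyl-CoA transporter gene SLC33A1 (0.03) and the riboflavin transporter gene SLC52A2 (-0.23) had adjusted p of at least 0.283. The same held for SLC35F5 (0.02), which belongs to the nucleotide sugar family above. The adaptor gene SLC4A1AP stood at -0.04 and SLC7A6OS at 0.15 (adjusted p = 0.819 and 0.111).

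Most solute carrier genes, like most named genes at the same level, varied little between pools. The pooled standard deviation within groups had a median of 0.13 over the 104 genes, against 0.12 over the 6444 named genes. It was under 0.2 for 80 of the 104 and 5376 of the 6444, and over 0.5 for 4 and 68. The share under 0.2 was thus smaller, and that over 0.5 larger, among the 104. The 4 solute carrier genes over 0.5 were SLC6A14 (1.20), SLC5A1 (1.13), SLC28A3 (1.06) and SLC39A2 (0.70), singled out after their values were seen. Their products are nutrient transporters: SLC6A14 takes up neutral and cationic amino acids, SLC5A1 is the sodium-glucose cotransporter SGLT1, SLC28A3 takes up nucleosides and SLC39A2 zinc. In all 4 genes and all 3 groups the pool numbered 3 was the highest and the pool numbered 2 the lowest.

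**Figure D4:**
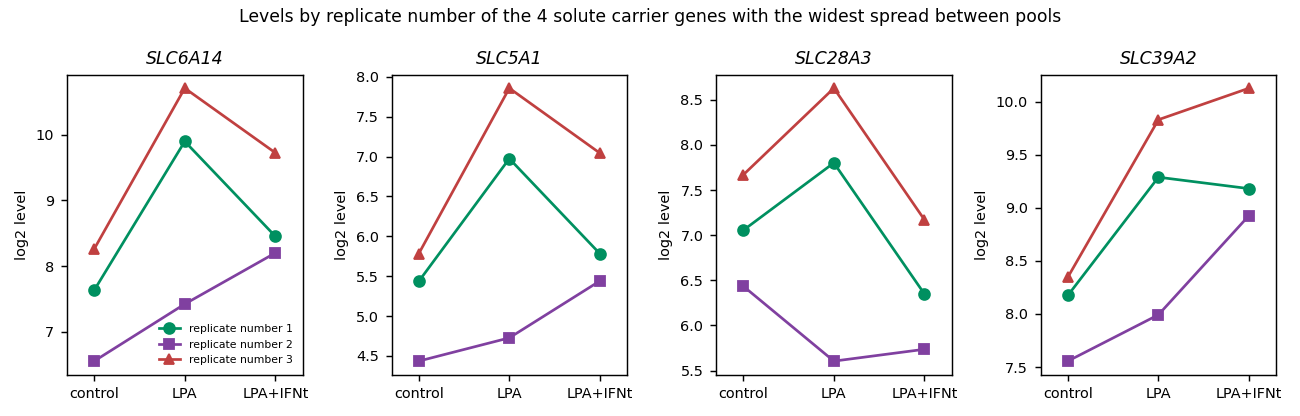
Log2 levels (y axis) of the 4 solute carrier genes with the widest spread within groups, by group (x axis), with a line for each replicate number. In each panel the line of number 3 runs highest and that of number 2 lowest, and the LPA array of number 2 lies far below the other 2 LPA arrays.

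SLC6A14 stood at 7.63, 6.56 and 8.26 in control, 9.90, 7.42 and 10.71 with LPA, and 8.45, 8.20 and 9.72 with LPA+IFNt. Within replicate numbers LPA minus control was 2.26, 0.87 and 2.45, positive in 3 of 3, but the groups overlapped and the mean difference of 1.86 had an SE of 0.87 (adjusted p = 0.653, or 0.173 with the block). SLC5A1 stood at 5.43, 4.43 and 5.78 in control, 6.97, 4.73 and 7.86 with LPA, and 5.78, 5.44 and 7.04 with LPA+IFNt. Its LPA minus control values within numbers were 1.54, 0.29 and 2.08 (mean 1.30, adjusted p = 0.803, or 0.273 with the block). The 95% intervals for LPA minus control were -0.18 to 3.90 in SLC6A14 and -0.61 to 3.21 in SLC5A1.

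SLC39A2 stood at 8.17, 7.56 and 8.35 in control, 9.29, 7.99 and 9.83 with LPA, and 9.18, 8.93 and 10.13 with LPA+IFNt. All LPA+IFNt arrays lay above all control arrays, by 1.39 on average (SE 0.51, adjusted p = 0.213, or 0.0258 with the block). SLC28A3 stood at 7.05, 6.43 and 7.67 in control, 7.80, 5.60 and 8.63 with LPA, and 6.35, 5.74 and 7.17 with LPA+IFNt. LPA+IFNt minus control was negative within each number (-0.71, -0.70 and -0.50, adjusted p = 0.661, or 0.372 with the block). With spike-in centring SLC6A14, SLC5A1 and SLC39A2 were called higher in LPA and in LPA+IFNt against control, in a fit that gave 1 shared standard error (0.18) to the whole array.

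Probe sets of a gene did not always give the same answer. SLC25A5, the gene of the ADP/ATP carrier ANT2, had a probe set of mean level 13.47 where LPA differed from control by -0.04, and LPA+IFNt differed from control by -0.06 and from LPA by -0.02. Its other probe set stood at 10.35, 10.45 and 10.25 in control, 9.51, 9.39 and 9.65 with LPA, and 10.10, 10.00 and 10.06 with LPA+IFNt. There the 3 groups did not overlap, with LPA lowest and LPA+IFNt between. LPA against control was lower by a log2 difference of -0.83 (SE 0.076, adjusted p = 0.0157, or 0.0675 with the block), and LPA+IFNt against LPA was higher by 0.53 (adjusted p = 0.00622, or 0.0198). SLC25A4, SLC25A5 and SLC25A6 encode closely related carriers, and cross-binding of probes among them was not tested.

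**Figure D5:**
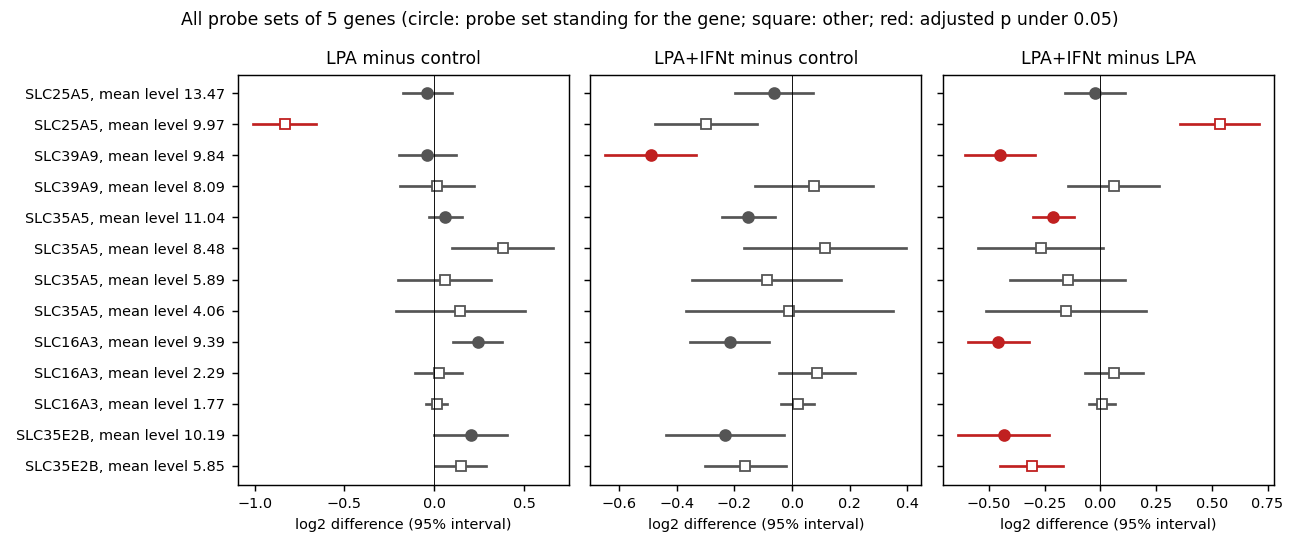
Log2 differences with 95% intervals (x axis; the panels have different scales) for every probe set of 5 genes, named with the mean level over 9 arrays (y axis); circles mark the probe set standing for the gene and red an adjusted p under 0.05. The 2 probe sets of SLC25A5 and of SLC39A9 differ in call, while both of SLC35E2B were called in LPA+IFNt minus LPA.

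SLC39A9 had a second probe set of mean level 8.09, with differences of 0.07 against control and 0.06 against LPA (adjusted p = 0.654 and 0.713), and with both averaged the gene lost its calls. The other 3 probe sets of SLC35A5 had LPA+IFNt minus LPA of -0.27, -0.15 and -0.15 with no call, and the first was called with the block (adjusted p = 0.0446). SLC35A5 lost its call with its probe sets averaged (-0.20, adjusted p = 0.116) and with trend and robust moderation of the variances (0.0615), under which SLC39A1 lost its call too (0.0655). The other 2 of SLC16A3 had mean levels of 2.29 and 1.77, under the trp value. SLC25A28, SLC38A5, SLC11A2, SLC25A4, SLC7A5, SLC39A1 and SLC39A14 had 1 probe set each.

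Solute carriers that carry other symbols were read from the same fit. Of 47 listed, 31 were measured and 18 lay above the trp value in control. None was called in LPA against control, where 3 had an unadjusted p under 0.05 with limma. MTCH1, which encodes a relative of mitochondrial carriers in the outer membrane, fell by 0.24 in LPA+IFNt against control (adjusted p = 0.0344) and by 0.28 against LPA (adjusted p = 0.0188). SFXN3, a sideroflexin gene, fell by 0.71 against LPA (adjusted p = 0.0432) and stood at -0.51 against control (adjusted p = 0.146, or 0.017 with the block). The mitochondrial pyruvate carrier genes MPC1 (-0.09) and MPC2 (-0.18), the prostaglandin transporter gene SLCO2A1 (0.04, under the trp value in control) and the pyrophosphate exporter gene ANKH (0.27) had adjusted p of at least 0.19 in LPA+IFNt against control.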

How the data were processed

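RNA (100 ng per pool) was hybridised to an Affymetrix bovine expression array, 1 array per pool. Per the submitters' processing notes, which name Partek and RMA without a version, the authors deposited normalised log2 values. Base 2 was taken from RMA's usual output. RMA makes the array distributions alike, which hides a change shared by most transcripts, and array medians lay between 4.30 and 4.38. Symbols are those of the array annotation. For all 104 genes the RefSeq gene ID (assembly ARS-UCD2.0) carries an equal symbol. No genome build is named, so no coordinates are given. Sequences were not used here.

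Differences were fitted by lmFit and eBayes of limma (version 3.58.1, under R 4.3.3) as two-sided tests over the 9 arrays, without a block, on 24016 probe sets, without 112 Affymetrix controls, and p-values were adjusted by Benjamini-Hochberg over all of them. The script was tested on simulated data.

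Deviations from group means correlated with r of 0.19 to 0.49 in all 9 pairs of equal replicate number across groups and with -0.47 to 0.14 in the 18 unequal pairs, so the numbers were taken to pair the pools, and the blocked value is given where it changes a call.

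Named genes were those called without the block (up to 12 per direction) and genes whose probe sets disagreed. The highest-level gene and the gene with the smallest F-test p of each class, and a short fixed list, were added. SLC7A2, SLC7A8 and SLC15A3 on that list were not members. Members and lists were chosen with earlier results of these data known.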

Additional observations from a re-analysis of the deposited data

How the results depend on the processing

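With the replicate number as a block, lower calls went from 3 to 10 in LPA+IFNt against control and from 8 to 13 against LPA, and genes differing among the groups from 8 to 16, with all 16 pairwise calls kept. Beyond the blocked values printed in the results, the block changed no other call of the probe sets standing for the genes named here. With spike-in centring 3 genes were higher in LPA against control, 5 higher and 0 lower in LPA+IFNt against control and 1 lower against LPA. The cause was not tested, 1 standard error was shared by the whole array there, and the share of named genes called was not computed. With probe sets averaged, 1 gene (SLC25A5) was lower in LPA against control, and its LPA+IFNt against LPA difference turned from -0.02 to 0.26 (adjusted p = 0.0167), because its probe sets differ. With only the 2 groups in the fit, and so fewer arrays, 3 genes were lower in LPA+IFNt against LPA. Leaving out 1 array gave 3 to 12 lower genes in LPA+IFNt against LPA and 4 to 10 differing among the groups (4 without LPA+IFNt replicate 2 or 3, 5 without a control array, LPA replicate 1 or LPA+IFNt replicate 1). SLC25A28 and SLC38A5 kept both calls under every alternative run. The number of arrays limits the precision.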
